A study of Mus musculus with 26 samples.

Results

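Peaks of open chromatin were examined at 3 genes of the core pluripotency circuit, Pou5f1, Sox2 and Sall4, in mouse pluripotent cells. The members were all peaks that overlapped the GRCm38 span of a gene or the 50 kb on either side of it, and for Sox2 also those lying 90 to 130 kb to either side. In all, 256 of the 451563 peaks in 26 libraries qualified, 101 of them at Pou5f1, 52 at Sox2 and 103 at Sall4, and 10 of the Sox2 peaks lay in the far windows. ATAC-seq marks open chromatin through the Tn5 transposase, which inserts adapters where DNA is accessible, and each library was made from 50000 cells. The first set of libraries held mouse embryonic stem (ES) cells in 2iL at passage 16, formative stem (FS) cells in A3XR as FS1 at passage 21 and FS2 at passage 29, epiblast stem cells (EpiSCs) in AF at passage 22 (EpiSC_AF), and EpiSCs in AFX as EpiSC_AFX1 at passage 14 and EpiSC_AFX2 at passage 16, each with 3 libraries. A second set, named Rd2 here after its source labels, held 2 libraries of ES cells in 2iL at passage 33 (Rd2_ES), 4 of epiblast-like cells induced for 2 days in AF with KSR of which the GFP-low cells were collected (Rd2_EpiLC), and 2 libraries of AFX-grown EpiSCs, passage 16 (Rd2_AFX). The source label of the Rd2_ES libraries is Rd2GFP, and that of the first-set ES libraries names no GFP. The labels give no genotype or derivation beyond these names, and they do not say whether the libraries of a culture came from separate cultures, so that p-values measure only the spread between these libraries, which may be technical.

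Pou5f1 encodes OCT4, a POU-domain transcription factor without which pluripotent cells are lost, and Sox2 encodes an HMG-box factor that binds DNA beside OCT4 on composite sites. Sall4 encodes a zinc-finger factor of the same circuit, and the 3 proteins act on each other's genes as well as on their own. Pou5f1 is a textbook case of enhancer choice: a distal upstream enhancer is used in naive ES cells and a proximal upstream enhancer in the primed epiblast. Sox2 in ES cells is known for a control region that lies far downstream of the gene. The deposited lists name no enhancer, so peaks are given here by their distance from the gene's start.

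Read depth was not given in the sources used here, and list length stood in for it. ES lists held 8044 to 10961 peaks, FS1 lists 23883 to 31263, FS2 lists 11796 to 14147, EpiSC_AF lists 15505 to 24824, EpiSC_AFX1 lists 17701 to 27485 and EpiSC_AFX2 lists 25641 to 29575. In the Rd2 set, the Rd2_ES lists held 471 and 2576 peaks, Rd2_EpiLC 7469 to 26045 and Rd2_AFX 10719 to 11252. A long list holds more weak peaks, so each comparison in the first set was made on the 8044 peaks with the highest −log10 p of each list (equal length), with the whole lists beside it. The 2 Rd2_ES lists were the shortest of the series, and no Rd2 list entered a test. At equal length the naive markers Zfp42 and Tbx3 carried a peak within 1 kb of the gene's ends in 3 of 3 ES libraries, and Tcf15 and Dnmt3b, markers of the later states, had none in ES and a peak in 3 of 3 libraries of FS1, EpiSC_AF, EpiSC_AFX1 and EpiSC_AFX2. Tcf15 and Dnmt3b also had none in the 3 FS2 libraries, while the naive markers Esrrb, Nr5a2, Dppa3 and Tfcp2l1 had none in ES. Tfcp2l1 went against its list, with a peak in 2 FS1, 2 FS2, 1 EpiSC_AF, 3 EpiSC_AFX1 and 3 EpiSC_AFX2 libraries, Klf4 had peaks in 2 ES, 2 FS1, 2 EpiSC_AF, 1 EpiSC_AFX1 and 3 EpiSC_AFX2 libraries, and Otx2, a factor of the later states, had none in any. Pou3f1, also of the later states, had peaks in 1 ES, 3 FS1, 2 FS2 and all EpiSC libraries of the first set. Eomes had them in 1 ES, 1 FS1, 1 FS2, 2 EpiSC_AF, 2 EpiSC_AFX1 and 2 EpiSC_AFX2 libraries. Fgf5 had them in 1 FS2, 2 EpiSC_AF and 1 EpiSC_AFX1 libraries, and T in 1 EpiSC_AF library. At equal length the 4 endoderm and 2 neural markers had no peak other than Foxa2 in 1 FS1 library. Among 4 fibroblast markers, Thy1 alone had peaks at equal length, in 1 FS1, 2 FS2, 3 EpiSC_AFX1 and 2 EpiSC_AFX2 libraries, and its part in the results was not tested. No marker of the 24 had a peak in either Rd2_ES list.

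The promoters of Pou5f1 and Sox2 are shown because the peaks at these genes are read against them. Each is the plus strand of the 250 bases before the RefSeq start in GRCm38.p6, at chr17:35505782-35506031 for Pou5f1 and chr3:34649745-34649994 for Sox2, with matches on either strand to the motifs below in capitals.
Pou5f1: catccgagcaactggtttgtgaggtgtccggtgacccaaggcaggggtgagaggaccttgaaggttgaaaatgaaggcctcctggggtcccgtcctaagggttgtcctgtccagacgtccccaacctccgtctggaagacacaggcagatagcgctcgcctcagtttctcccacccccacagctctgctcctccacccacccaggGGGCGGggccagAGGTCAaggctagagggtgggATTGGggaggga
Sox2: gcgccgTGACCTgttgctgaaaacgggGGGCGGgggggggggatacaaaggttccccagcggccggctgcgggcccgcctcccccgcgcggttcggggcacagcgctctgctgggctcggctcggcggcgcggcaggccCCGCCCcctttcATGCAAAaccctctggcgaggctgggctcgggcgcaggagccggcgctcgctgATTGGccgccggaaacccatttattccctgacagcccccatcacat
The motifs searched were the octamer ATGCAAAT that POU factors bind, its core ATGCAAA, the SOX motif AACAAT, the GC box GGGCGG, the CCAAT box and the nuclear receptor half-site AGGTCA. The octamer holds its core, and no other matches overlapped in these windows. Sox2 carried the octamer core starting 99 bases before its start, a match found in 4.12% of 32851 promoter windows of the same length, and Pou5f1 carried none. Neither window held the full octamer, found in 1.6% of windows, or the SOX motif, found in 9.42%. Pou5f1 had 1 GC box and Sox2 2, against 32.7% of windows with any, and each gene had 1 CCAAT box (33.8%) and 1 half-site (14%). GC content was 62% for Pou5f1 and 72% for Sox2, and the median window had 52.4%. A peak covered the Sox2 octamer core in 17 of 26 lists, and one covered the Pou5f1 GC box in 8. These matches describe the letters of the windows and show no binding.

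Peaks within 50 kb of Pou5f1 merged into 18 regions, 8 of them held by a single list. Upstream of the gene lay a pair of separate peaks, a distal peak about 2.0 kb before the start and a proximal peak ending nearer to it. The distal region, chr17:35503909-35504195, spans positions −2123 to −1837 relative to the start and lies inside the annotated span of the lncRNA Gm32362. The proximal region, chr17:35504597-35505781, spans positions −1435 to −251 and ends where the 300-base RefSeq promoter window begins. That split of the merged region at the promoter window was chosen after the peaks had been seen.

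**Figure D1:**
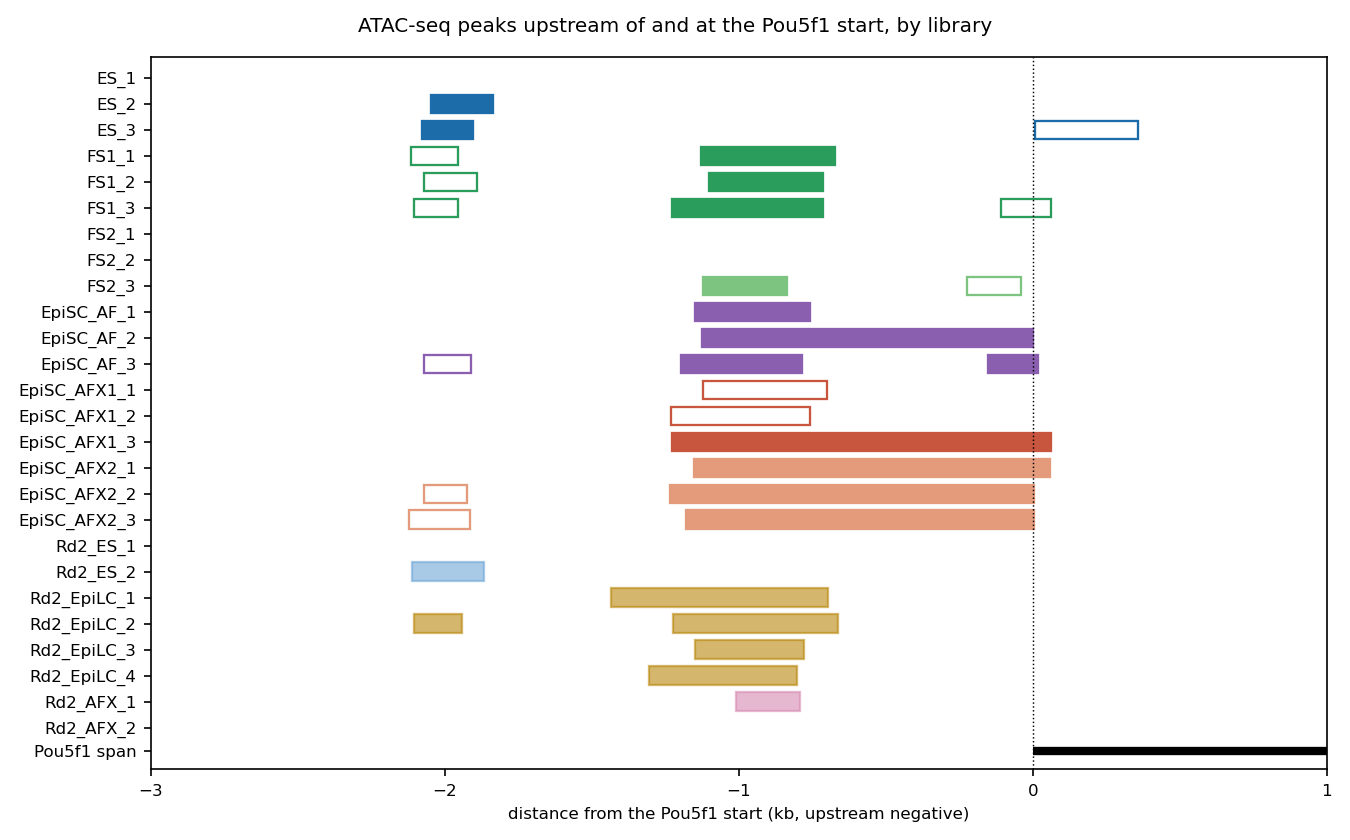
Peaks around Pou5f1 in each library, with distance from the start in kb on the x axis and 1 row per library. In the first set, filled bars are peaks among the 8044 of highest −log10 p and open bars are weaker peaks, and Rd2 bars are peaks as deposited. The distal peak near 2.0 kb upstream appears in 10 rows and the proximal peak in 18.

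No ES list held the proximal peak. As deposited, it was present in 0 of 3 ES, 3 of 3 FS1, 1 of 3 FS2, 3 of 3 EpiSC_AF, 3 of 3 EpiSC_AFX1 and 3 of 3 EpiSC_AFX2 libraries, and in 0 of 2 Rd2_ES, 4 of 4 Rd2_EpiLC and 1 of 2 Rd2_AFX libraries. Of the 15 first-set libraries other than ES, 13 held the peak, and the other 2 were FS2 libraries. At equal length it was left in 4 of 6 FS libraries, 4 of 6 EpiSC_AFX and 3 of 3 EpiSC_AF, and in 0 of 3 ES. The size of this contrast depended on the setting. ES minus FS, −66.7 percentage points at equal length, was also −66.7 on whole lists and −50 with a −log10 q of at least 5. It went to 0 when peaks were ranked by fold enrichment and in the top 5000 peaks. In all, 3 of 14 alternatives moved it by more than the spread between libraries. ES minus EpiSC_AFX, also −66.7, went to −16.7 by fold enrichment and −33.33 in the top 5000, and its other extreme was −100. Fisher's exact test gave p = 0.167 for ES against FS (adjusted p = 0.78 over all regions). For ES against EpiSC_AFX the region tested, chr17:35504799-35506094, also took in the start, and the same test gave an adjusted p of 0.667. Neither difference passed.

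The distal peak was rarer. As deposited, 2 of 3 ES, 3 of 3 FS1, 0 of 3 FS2, 1 of 3 EpiSC_AF, 0 of 3 EpiSC_AFX1 and 2 of 3 EpiSC_AFX2 libraries held it, along with 1 of 2 Rd2_ES, 1 of 4 Rd2_EpiLC and 0 of 2 Rd2_AFX libraries. At equal length it stayed in the 2 ES libraries, at ranks 5960 and 3751, and in 0 of the other 15. The cut to equal length left the ES_2 list, with its 8044 peaks, whole, while every other first-set list was shortened. The exact test missed the threshold here as well, with p = 0.0833 for ES against FS (adjusted p = 0.633) and an adjusted p of 0.512 for ES against EpiSC_AFX. With 3 against 6 libraries the smallest p these tests can give is 0.0119. On whole lists, by percentile within the own list, where 100 is the strongest, the distal peak stood at 25.9 and 61.4 in ES and at 47.4, 15.8 and 48.5 in FS1. A percentile also moves with list length, so these values are not compared between lists. No distal peak reached a −log10 q of 5 in any list, and the highest was 4.37, in EpiSC_AFX2_2. With that minimum the differences in share of ES from FS and from EpiSC_AFX were therefore 0 without any peak to compare.

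Within a list the order of the peaks was uniform. Of the 7 lists that held both, the proximal peak ranked above the distal peak in 7. A further 11 lists held the proximal peak without the distal peak, 3 held the distal peak without the proximal peak, and those 3 were ES_2, ES_3 and Rd2_ES_2. The 5 lists with neither were ES_1, FS2_1, FS2_2, Rd2_ES_1 and Rd2_AFX_2. All ES lists of both sets therefore fell among the lists without a proximal peak, and these include the shortest lists of the series, 471 and 2576 peaks for Rd2_ES. The proximal peak lay at percentiles 74.0, 73.4 and 78.4 in FS1 and 55.8 in FS2_3. In the EpiSCs it reached 57.3, 76.8 and 73.1 in AF, 44.1, 52.5 and 75.9 in EpiSC_AFX1, and 84.3, 82.4 and 87.4 in EpiSC_AFX2. The 4 Rd2_EpiLC lists placed it at 54.3, 84.7, 57.9 and 91.8, and Rd2_AFX_1 at 18.4.

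**Figure D2:**
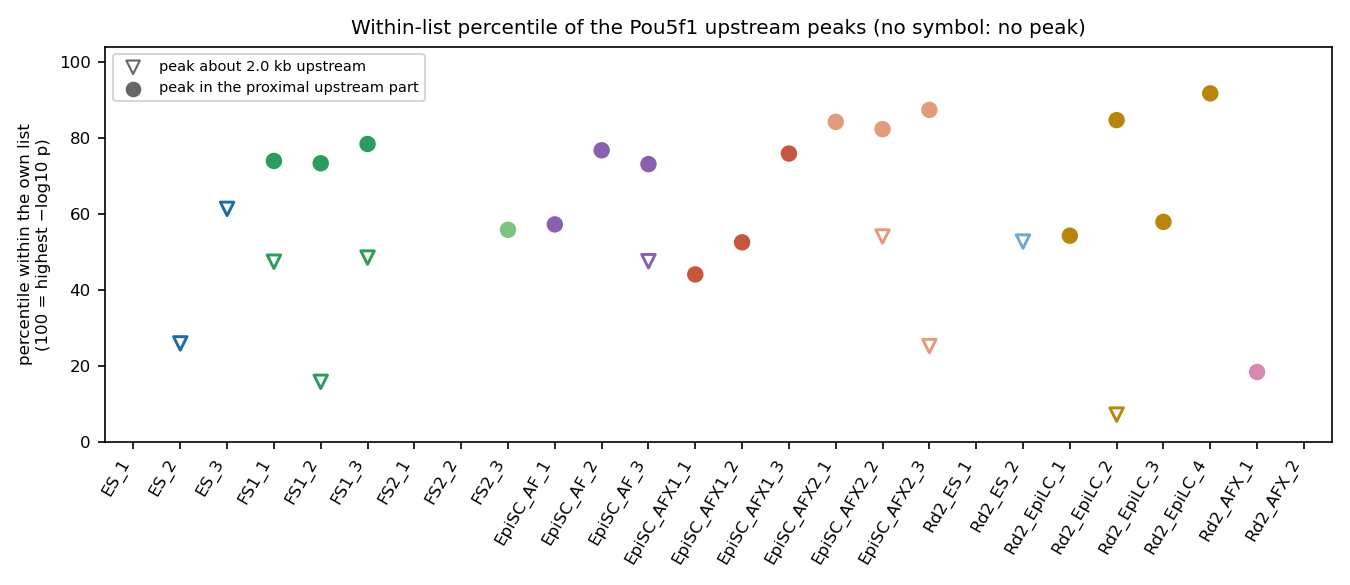
Percentile of the distal (open triangles) and proximal (filled circles) Pou5f1 peaks within each library's own list, ranked by −log10 p with 100 as the strongest, and no symbol where a list holds no peak. ES_2, ES_3 and Rd2_ES_2 show a triangle without a circle, and every circle lies above the triangle of the same library.

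The shape of the proximal peak also varied. In 13 lists it was a separate peak of 218 to 741 bp that ended before the promoter window. In EpiSC_AF_2, EpiSC_AFX1_3 and the 3 EpiSC_AFX2 libraries it was joined with the start in a peak of 1126 to 1291 bp. The promoter window itself, chr17:35505782-35506081, carried a peak in 9 of 18 first-set libraries, namely 1 of 3 ES, 1 of 3 FS1, 1 of 3 FS2, 2 of 3 EpiSC_AF, 1 of 3 EpiSC_AFX1 and 3 of 3 EpiSC_AFX2, and in 0 of 8 Rd2 libraries. At equal length 6 remained, all from EpiSCs (2 EpiSC_AF, 1 EpiSC_AFX1 and 3 EpiSC_AFX2). Only that of EpiSC_AF_3 was a separate peak, and the others were the joined peaks, already counted as the proximal peak. The proximal percentiles given for those libraries are those of the joined peaks. The ES peak, in ES_3, began 8 bases into the gene and ran to base 358.

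Peaks beyond the gene belonged mostly to its neighbours. A region at chr17:35516749-35517327, 11.0 kb downstream over the promoter windows of Tcf19 and Cchcr1, had a peak in 25 of 26 lists, the exception being Rd2_ES_1, and in 17 of 18 first-set lists at equal length. The region 26.6 kb downstream at chr17:35531863-35533443, over the promoter window of Psors1c2, was held by 0 of 3 ES, 2 of 3 FS1, 1 of 3 FS2, 3 of 3 EpiSC_AF, 0 of 3 EpiSC_AFX1, 3 of 3 EpiSC_AFX2 and 3 of 4 Rd2_EpiLC lists, and by none at equal length. A further region 42.8 kb downstream was held by 10 lists, among them all 6 of EpiSC_AFX and no ES list (Fisher's exact test, p = 0.0119, adjusted p = 0.137). At equal length 1 of the 10 remained, in FS2.

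Sox2 was marked by a peak over its start in most libraries, ES included. Its promoter window, chr3:34649745-34650044, carried a peak in 2 of 3 ES, 3 of 3 FS1, 2 of 3 FS2, 3 of 3 EpiSC_AF, 3 of 3 EpiSC_AFX1 and 3 of 3 EpiSC_AFX2 libraries, which is 16 of 18. In the Rd2 set, 2 of 4 Rd2_EpiLC, 0 of 2 Rd2_ES and 0 of 2 Rd2_AFX libraries had it. At equal length 10 of 18 libraries kept it: 1 of 3 ES, 1 of 3 FS1, 0 of 3 FS2, 3 of 3 EpiSC_AF, 3 of 3 EpiSC_AFX1 and 2 of 3 EpiSC_AFX2. The FS libraries were the lowest, with 1 of 6 against 5 of 6 for EpiSC_AFX, and Fisher's exact test gave p = 0.0801 (adjusted p = 1).

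**Figure D3:**
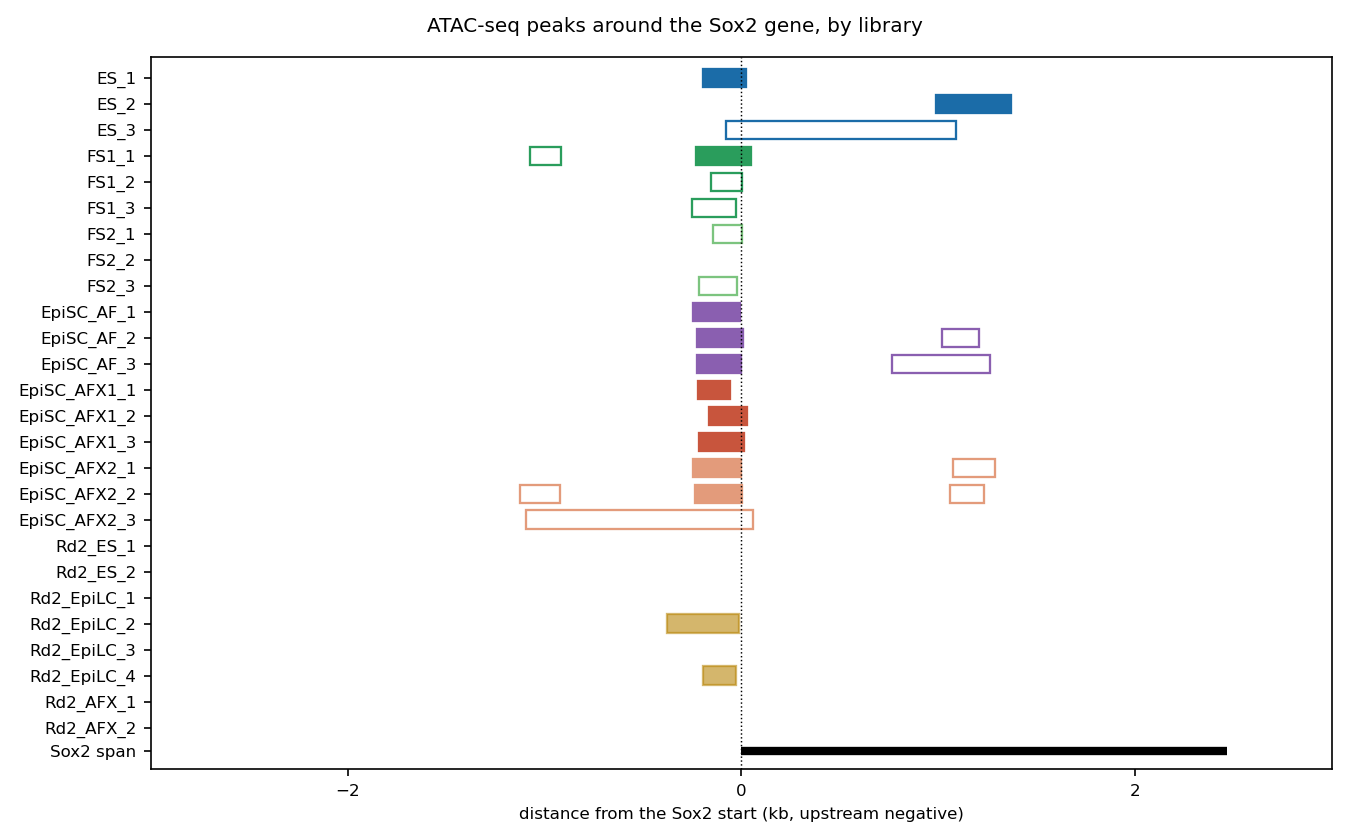
Peaks around Sox2 in each library, with distance from the start in kb on the x axis and the gene's span as a black bar. Filled bars in the first set are among the 8044 peaks of highest −log10 p, open bars are weaker, and Rd2 bars are as deposited. Peaks sit over the start in 16 of 18 first-set libraries, and 6 libraries show a peak reaching beyond base 700 of the gene.

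Inside the gene, 6 libraries had a peak that reached beyond base 700: 2 ES, 2 EpiSC_AF and 2 EpiSC_AFX2, and no FS or EpiSC_AFX1 library. That limit was chosen after the peaks were seen, and the start peaks of FS1_1 and EpiSC_AFX2_3 ended at base 50 and base 60. The ES_2 peak, from base 987 to base 1369, ranked 2230 of 8044 and was the member of this kind that stayed at equal length. ES_2 had no peak over the start. ES_3 had a peak of 1166 bp that ran from position −77 to position 1088. Among the other 6 regions within 50 kb, the most frequent lay 18.7 kb downstream at chr3:34668507-34668953, in 7 lists, with 1 ES, 2 FS1, 1 EpiSC_AFX1, 2 EpiSC_AFX2 and 1 Rd2_EpiLC.

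The far windows, where the ES control region of Sox2 is known to lie downstream, held 6 regions, all on the downstream side, and 4 of them came from a single list each. In ES, single-list peaks lay 95.4 kb downstream in ES_3 (percentile 71.8) and 106.7 kb downstream in ES_2 (percentile 25.0). Both stayed at equal length, but the ES_2 list was not shortened, so its peak could not be lost. At 107.8 kb, chr3:34757424-34758188, the 4 lists with a peak were all EpiSC_AFX, 2 each of EpiSC_AFX1 and EpiSC_AFX2, with percentiles of 36.9, 24.7, 20.1 and 10.0. None of the 4 stayed at equal length, and on whole lists Fisher's exact test of 0 of 6 FS against 4 of 6 EpiSC_AFX gave p = 0.0606 (adjusted p = 1). No far region was shared by 2 ES libraries, which is a count over peak lists and not a measure of how open the region was.

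Sall4 showed the widest contrast between ES and the other cells on whole lists. Its gene lies on the minus strand, by general knowledge and not from a table, and has no entry among the promoter sequences. Over its start, chr2:168766742-168767415, which the lncRNA Gm14261 also overlaps, peaks were present in 0 of 3 ES, 3 of 3 FS1, 1 of 3 FS2, 3 of 3 EpiSC_AF, 2 of 3 EpiSC_AFX1 and 3 of 3 EpiSC_AFX2 libraries. The Rd2 lists had it in 0 of 2 Rd2_ES, 3 of 4 Rd2_EpiLC and 2 of 2 Rd2_AFX, and in Rd2_AFX_2 it ranked 947. At equal length 5 of 18 first-set libraries kept it, 1 each of FS1, EpiSC_AF and EpiSC_AFX1, 2 of EpiSC_AFX2 and 0 of ES or FS2. On whole lists Fisher's exact test gave p = 0.167 (adjusted p = 0.991) for ES against FS and p = 0.0476 (adjusted p = 0.332) for ES against EpiSC_AFX.

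**Figure D4:**
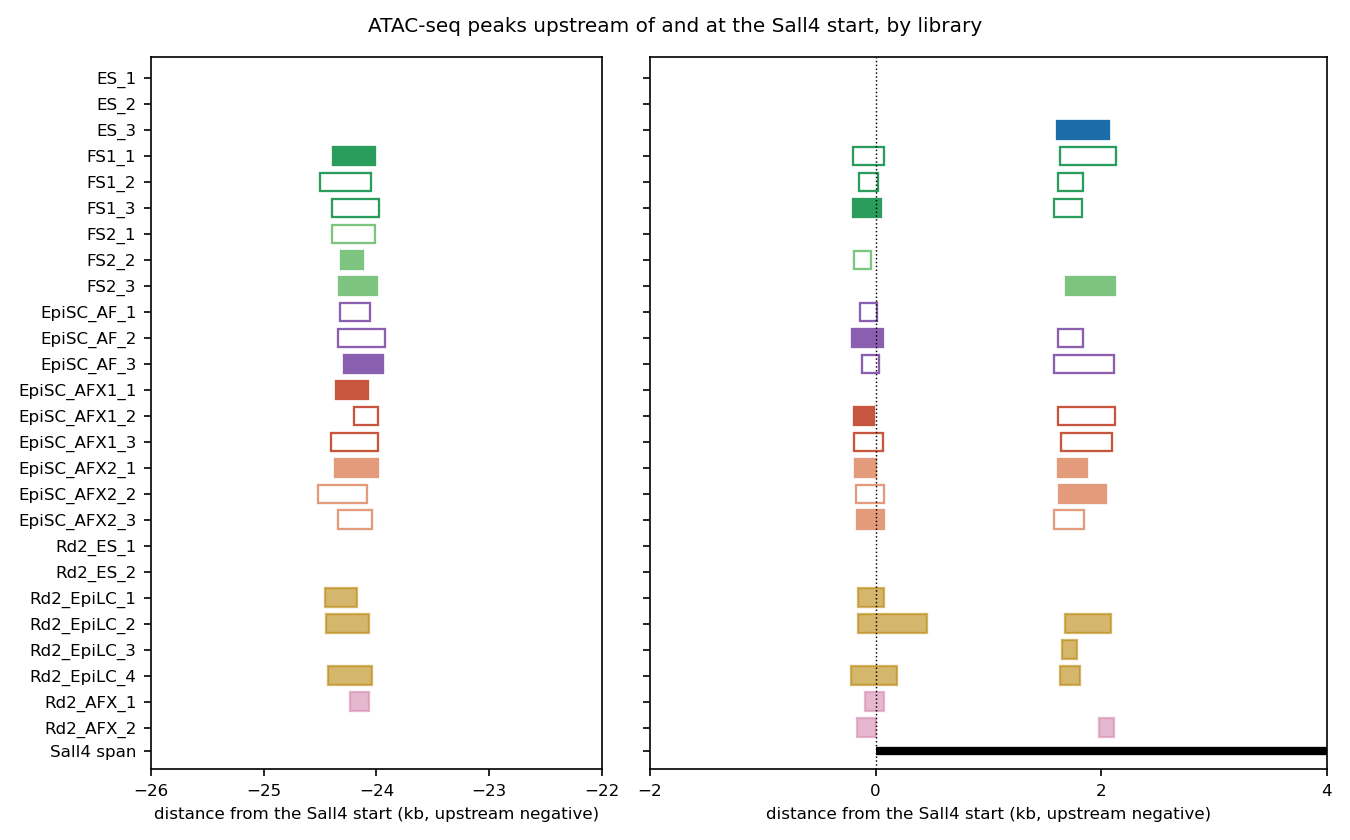
Peaks around Sall4 in each library, with distance from the start in kb on the x axes and the gene transcribed to the right. Filled bars in the first set are among the 8044 peaks of highest −log10 p, open bars are weaker, and Rd2 bars are as deposited. The 3 ES rows are empty over the start, where 12 of 15 other first-set rows hold a peak, and 24.2 kb upstream, where 15 of 15 do.

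An upstream region 24.2 kb before the start, chr2:168791124-168791718, was held by 0 of 3 ES libraries and by all 15 others of the first set, and by 0 of 2 Rd2_ES, 3 of 4 Rd2_EpiLC and 1 of 2 Rd2_AFX libraries. Fisher's exact test on whole lists gave p = 0.0119, the smallest possible, for 0 of 3 ES against 6 of 6 FS and against 6 of 6 EpiSC_AFX, with adjusted p of 0.35 and 0.137 over all regions, so neither passed. Within their own lists these 15 peaks stood at percentiles from 26.4 to 77.5. At equal length 6 of the 15 remained, 1 FS1, 2 FS2, 1 EpiSC_AF, 1 EpiSC_AFX1 and 1 EpiSC_AFX2, and ES stayed at 0. The strongest by rank was in FS2_2, at 2828.

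Within the gene, a region 1.9 kb past the start at chr2:168765071-168765618 had a peak in 1 of 3 ES, 3 of 3 FS1, 1 of 3 FS2, 2 of 3 EpiSC_AF, 2 of 3 EpiSC_AFX1 and 3 of 3 EpiSC_AFX2 libraries, and in 3 of 4 Rd2_EpiLC and 1 of 2 Rd2_AFX. At equal length 4 of these remained, from ES_3, FS2_3 and a pair of EpiSC_AFX2 libraries. Downstream, the region 25.5 kb from the start, chr2:168741229-168742181, lies over promoter windows of the neighbour Atp9a and was held by 2 of 3 ES and 15 of 15 other first-set libraries, and at equal length by 1 of 3 ES and the same 15. A region 59.2 kb downstream, chr2:168707844-168708136, within Atp9a, was held by 3 of 3 FS1, 1 of 3 FS2, 1 of 3 EpiSC_AFX1 and 3 of 3 EpiSC_AFX2 libraries and by none of ES or EpiSC_AF.

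Counting peaks over the span of each gene and 50 kb on either side, Pou5f1 had 1, 2 and 2 peaks at equal length in ES, 2, 2 and 2 in FS1, 1, 1 and 2 in FS2, 2, 2 and 3 in EpiSC_AF, 1, 1 and 2 in EpiSC_AFX1 and 2, 2 and 2 in EpiSC_AFX2. The groups overlapped fully, with a mean of 1.67 peaks in ES, FS and EpiSC_AFX, and the exact permutation test gave p = 1 in each of the 3 comparisons. These counts include the distal peak in 2 ES libraries and the proximal peak in 11 of the other 15. The Pou5f1 tie changed with the setting. ES minus FS was −1.5 with a 100 kb flank (exact permutation p = 0.0119, adjusted p = 0.141). It was 0.667 when ranked by fold enrichment (exact permutation p = 0.0833), and 0.167 with a 20 kb flank and in the top 5000 peaks. At equal length Sox2 had 1, 1 and 0 peaks in ES, 1, 0 and 1 in FS1, 0, 0 and 0 in FS2, 1, 1 and 1 in EpiSC_AF, 1, 1 and 1 in EpiSC_AFX1 and 1, 1 and 0 in EpiSC_AFX2. These groups overlapped too, with exact permutation p = 0.524 for ES against FS, p = 1 for ES against EpiSC_AFX and p = 0.242 for FS against EpiSC_AFX.

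Sall4 had 0, 1 and 1 peaks in ES at equal length, 2, 2 and 2 in FS1, 2, 2 and 4 in FS2, 1, 2 and 3 in EpiSC_AF, 2, 2 and 1 in EpiSC_AFX1 and 4, 3 and 3 in EpiSC_AFX2. Every FS library lay above every ES library, and ES and EpiSC_AFX met at 1 peak. The tests counted each library as a replicate, although all ES libraries share a source label and FS and EpiSC_AFX each join 2. The mean difference was −1.67 for ES minus FS (0.667 against 2.33, exact permutation p = 0.0119, the smallest possible, and adjusted p = 0.19 over 17769 genes). For ES minus EpiSC_AFX it was −1.83 (0.667 against 2.5, exact permutation p = 0.0476, adjusted p = 0.328). The 2 types other than ES differed by −0.167 (FS minus EpiSC_AFX, exact permutation p = 1). Peaks inside the neighbour Atp9a entered these counts. The Atp9a region 25.5 kb downstream was held by 1 of 3 ES and 6 of 6 FS libraries. At 59.2 kb it was 0 of 3 and 2 of 6, and at 41.0 kb 0 of 3 and 1 of 6. The region 24.2 kb upstream of Sall4 was held by 0 of 3 ES and 3 of 6 FS libraries. The Sall4 start was held by 0 of 3 and 1 of 6, and the region at 1.9 kb by 1 of 3 and 1 of 6. The ES minus FS difference was −0.667 with a 20 kb flank (exact permutation p = 0.25), −0.833 in the top 5000 peaks (p = 0.0714) and −1 with a −log10 q of at least 5 (p = 0.393). Among all coding genes with a peak the median difference was −0.167 for both ES comparisons, and no gene passed an adjusted p of 0.05 in any of the 3 comparisons (0% of 17769, 17505 and 16993 genes), although 2086, 2545 and 472 had an unadjusted p below 0.05.

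On whole lists the differences from ES were larger at Pou5f1 and Sall4. Pou5f1 had 2, 2 and 3 peaks in ES against 4, 4 and 7 in EpiSC_AFX1 and 6, 5 and 5 in EpiSC_AFX2, a difference of −2.83. Sall4 had 0, 1 and 2 in ES against 5, 5 and 5 in EpiSC_AFX1 and 6, 7 and 7 in EpiSC_AFX2, a difference of −4.83. Both reached exact permutation p = 0.0119 and an adjusted p of 0.0324, but 36.4% of all genes were called lower in ES on those lists, 0.338% were called higher, and the median gene differed by −1.67. The Sox2 difference of −0.667 did not pass (exact permutation test, adjusted p = 0.597). Against FS, whole-list differences were −2 for Pou5f1, −0.333 for Sox2 and −3.5 for Sall4, with adjusted p of 0.326, 0.882 and 0.144 by the exact permutation test. In the Rd2 set, Rd2_EpiLC averaged 4.5 ± 2.65 peaks at Pou5f1 (SD, n = 4), 1.5 ± 1.91 at Sox2 and 4.25 ± 2.06 at Sall4. At Sox2 there was no peak in Rd2_ES, Rd2_AFX, Rd2_EpiLC_1 or Rd2_EpiLC_3. Rd2_ES had none at Sall4 either, where each Rd2_AFX list had 3.

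**Figure D5:**
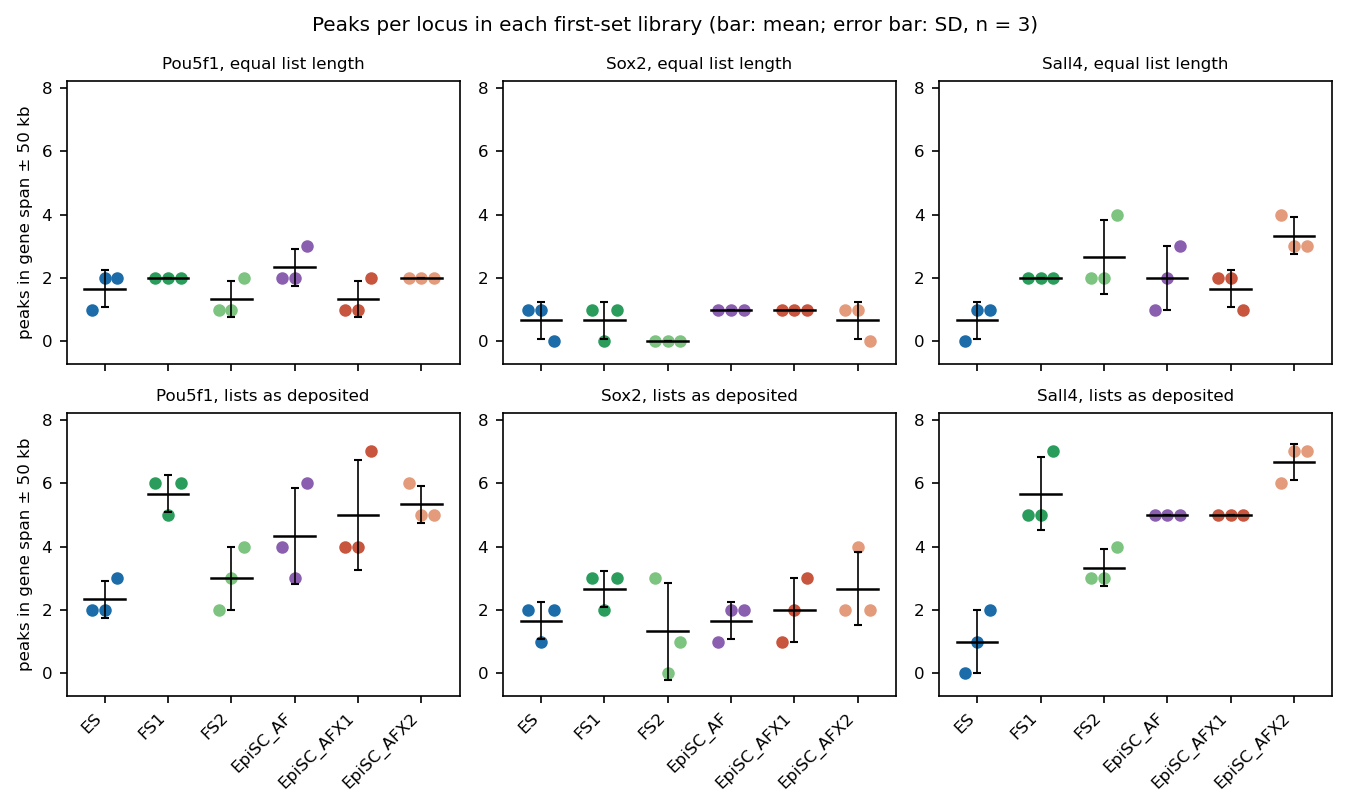
Number of peaks per library within 50 kb of each gene, at equal length and as deposited, with each point a library and the cultures along the x axis. At Sall4 the 3 ES libraries sit at 0, 1 and 1 peaks at equal length and the 6 FS libraries at 2 to 4.

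Region by region, 15 regions at the 3 genes had a peak in ES or FS at equal length. By a rule added after the values were seen (peaks in 2 of every 3 libraries of a type or more, with none in the type it is set against), 1 of the 15 was held by ES without FS, the distal Pou5f1 region, and 1 by FS without ES, the proximal Pou5f1 region. Over all regions the same rule was met by 7.07% for ES without FS and 6.73% for FS without ES, so the number of such regions was near the background and says nothing particular about these genes. For ES and EpiSC_AFX the distal region and the proximal region, there merged with the start, met the rule. These were 1 each of 12 regions, against 8.44% and 7.94% of all regions. None of 11 met it for FS and EpiSC_AFX, against 0.959% for FS without EpiSC_AFX and 0.607% for the reverse. On whole lists 4 of 27 regions were held by FS without ES (12.0% of all regions), and 1 of them, 24.2 kb upstream of Sall4, was in every FS library (2.89%). For EpiSC_AFX without ES the counts were 5 of 29 (19.1%) and 2 in every library (8.18%), and 1 of 31 was held by EpiSC_AFX without FS (1.08%), the Sox2 region at 107.8 kb. No region in the genome passed Fisher's exact test after adjustment, in 22046, 20630 and 18774 regions at equal length, of which 1463, 1673 and 156 had an unadjusted p below 0.05.

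Start windows were counted for all coding genes as well. On whole lists the start window had a peak in 9 of 18 first-set libraries at Pou5f1, 16 at Sox2 and 12 at Sall4, and 45.2%, 16.3% and 37.1% of 17492 coding genes had one in more libraries. At equal length the counts were 6, 10 and 5, with 28.5%, 21.6% and 30.2% of genes above them. A peak in all 18 libraries was found at 10.2% of genes on whole lists.

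Other genes of the pluripotency network were taken from a list of 26 genes, all of which matched the gene table. At equal length 22 were measured for ES against FS and 0 passed the exact permutation test after adjustment. Zfp42, the naive marker also called REX1, averaged 2 peaks in ES and 0 in FS, and Prdm14, a regulator of naive pluripotency, 1.33 and 0. Pou3f1, which encodes the neural and epiblast factor OCT6, averaged 0.667 in ES and 4.67 in FS, and Tdgf1, a Nodal co-receptor, 0 and 1.17. Each of these 4 had exact permutation p = 0.0119 and adjusted p = 0.19, as Sall4 did. Jarid2, a partner of the Polycomb complex, made 3 genes higher and 2 lower at an unadjusted p below 0.05, beside 605 higher and 1481 lower of all 17769 genes, and the list's median difference was 0 against −0.167 for all genes. For ES against EpiSC_AFX, 0 of 24 passed, with Prdm14, Tfap2c and Zfp42 higher and Pou3f1, Tdgf1 and Utf1 lower before adjustment, beside 706 higher and 1839 lower of all 17505 genes. For FS against EpiSC_AFX, 0 of 21 passed and Tdgf1 was lower before adjustment, beside 239 higher and 233 lower of 16993. On whole lists 1 gene of 24 was called higher in ES than in EpiSC_AFX, Zfp42, and 10 were called lower, beside the 36.4% of all genes called lower.

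The genes whose peak counts at equal length varied most like each member over the 18 first-set libraries were found by Pearson's r among 17895 genes with a varying count. For Pou5f1 they were Ctdspl2 (r = 0.81), Mme (0.78) and Shank1 (0.75). The closest to Sox2 were Tsen15 (0.88), Mylpf (0.81) and Esyt1 (0.81). Sall4 was followed most closely by Cxcl12 and Sftpc (both 0.81) and Lgi3 (0.80). Sftpc and Lgi3 are neighbours on chromosome 14 whose windows overlap, so they are not separate cases. Cxcl12 and Sftpc each averaged 0.278 peaks per library. All these correlations are descriptions over counts that take few values, in libraries that share culture and list length.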

How the data were processed

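Each library had 1 deposited list of peaks, so peaks were called per sample. Per the submitters' processing notes, Trim Galore, Bowtie, Picard and MACS2 and the build mm10 were used; versions, settings and the role of each were not given in the sources used here. The authors' deposited lists give each peak a fold enrichment (a ratio to background), a −log10 p and a −log10 q, and a score that was not used. These values ranked peaks only within their own list. The shortest peak was 150 bp in the first set and 110 bp in the Rd2 set, and the sets were not tested against each other.

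Groups followed the source labels, with FS joining FS1 and FS2, and EpiSC_AFX joining EpiSC_AFX1 and EpiSC_AFX2. At most 0.0746% of peaks had identical coordinates in 2 libraries of a group. Genes and promoter windows came from RefSeq tables of GRCm38.p6. Overlapping peaks were merged into regions, and 1 shared base counted as presence. Peaks per locus were compared by a two-sided exact permutation test and regions by Fisher's exact test, each with Benjamini-Hochberg adjustment over all genes or regions and a threshold of 0.05. Regions were described singly where they overlapped a gene's start, had a peak in at least 2 of 3 libraries of a first-set culture at equal length, or in at least 3 of 4 Rd2_EpiLC lists; the Pou5f1 region at 42.8 kb and the Sox2 regions at 18.7, 95.4, 106.7 and 107.8 kb fell outside this rule and were chosen after their values were seen. Genes of like pattern were the 3 with the highest correlation. The genes, members and lists were chosen with earlier results of these data known. The tests were tried on simulated data. Python 3.11.15, numpy 2.4.6, pandas 2.3.3 and scipy 1.17.1 were used. The alternatives were whole lists, a −log10 q minimum, other ranks, flanks and list lengths, covered bases, a replicate block and leaving out each library.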

Additional observations from a re-analysis of the deposited data

Results flagged for a closer look

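Peaks per locus, at equal length and on whole lists, were searched in 15 groups for a library standing apart from the rest of its group. In all, 2 were found, both at equal length. Chance is taken to give about 1 in 20 groups, a rate that need not apply to small counts with ties. At Sox2, EpiSC_AFX2_3 had 0 peaks and the other 5 EpiSC_AFX libraries had 1 each. On its whole list the same library held a peak of 1153 bp that ran from position −1092 to position 60 relative to the Sox2 start, at rank 12287. At Sall4, FS2_3 had 4 peaks and the other 5 FS libraries had 2 each.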

How the results depend on the processing

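Of 486 recomputed values, 13 reversed, 3 passed the threshold where the reported value had not, 2 counts of genes moved by more than 1.5 times and 11 shares of libraries moved by more than the spread between libraries. Among the 387 differences between groups, 17 fell to 0 and 68 left a reported value of 0. Between ES and EpiSC_AFX, 7383 genes were called on whole lists and 5280 with a −log10 q of at least 5, against 0 at equal length. Pou5f1 passed in that comparison at −2.83 peaks on whole lists and −1.67 with the −log10 q minimum, and Sall4 at −4.83 on whole lists. The Sox2 count reversed for ES minus FS to −0.333 on whole lists and −0.5 with the −log10 q minimum, and its start share (ES minus FS, in percentage points) to −16.7 on whole lists, −33.33 with the −log10 q minimum and −16.7 without ES replicate 1. For ES minus EpiSC_AFX the Sox2 count reversed to 0.5 with the top 5000 peaks, 0.5 when ranked by fold enrichment, 0.167 with a 100 kb flank and 22.2 covered bases, and its start share to 16.7 points with the top 5000 peaks. At 24.2 kb upstream of Sall4 the FS minus EpiSC_AFX share became −33.33 points with the −log10 q minimum. Leaving out each library gave −0.333 to 0.167 peaks at Sox2 for ES minus EpiSC_AFX, positive without ES replicate 3, and −0.5 to 0.133 at Sall4 for FS minus EpiSC_AFX, positive without EpiSC_AFX2 replicate 1. The Sox2 start share for ES minus FS ran from −16.7 to 33.33 points. Leaving out each library gave −1.83 to −1.33 peaks at Sall4 for ES minus FS and −2.13 to −1.5 for ES minus EpiSC_AFX, but the latter was −0.833 in the top 5000 peaks and −1.17 with a 20 kb flank. The Sox2 start share for FS minus EpiSC_AFX went from −66.7 to −16.7 points on whole lists and in the top 5000 peaks. At 24.2 kb upstream of Sall4 ES minus FS went from −50 to 0 with the −log10 q minimum. No ES or FS library held a peak there at that minimum (highest −log10 q 4.96, in FS1_3), so this 0 compares no peaks. The cause of these changes was not tested. With the replicate number as a block, the Sall4 difference was −1.67 for ES minus FS (exact permutation p = 0.037, adjusted p = 0.429), and the block changed no call. Libraries of the same number did not deviate together, and 6 of 18 lay nearest to their own number. Peak presence is set by list length as well as by openness, read depth was unknown, and 3 ES libraries limit every ES comparison, so that a missing peak is a missing call and does not show closed chromatin.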
